A study of Mus musculus with 6 samples.

Results

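H19 and 8 other imprinted or fetal genes (Igf2, Dlk1, Meg3, Cdkn1c, Peg3, Plagl1, Afp and Gpc3) were followed through 6 mouse liver RNA-seq libraries. These 9 genes were taken by symbol from the 55222 entries of the deposited table, and each was found there. They had been selected on their FPKM values in these same libraries, so those values are given as a description. The libraries form 3 groups of 2. The AAV-shPhpt1 group had carbon tetrachloride (CCl4) and an adeno-associated virus with a short hairpin RNA that targets Phpt1. The AAV-Ctrl group had CCl4 and a control virus, and the normal group had neither, so effects of CCl4 and of virus cannot be told apart in a comparison with normal livers. All mice were C57BL/6, written C57BL/6J in the treatment protocol. Their ages, and the promoter that drives the hairpin, are stated in no source used here. CCl4, a solvent that hepatocytes turn into a toxic radical, was injected into the peritoneum at 12.5 ml/kg in olive oil, 2 times a week. Virus went into a vein after 1 week of CCl4, and the interval between the final CCl4 dose and harvest was 48 h. The labels give 5 mice per group and do not say which of them gave the libraries.

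An imprinted gene is read from the copy of 1 parent only. H19 is a long noncoding RNA read from the maternal copy, and Igf2, a fetal growth factor, is its paternally expressed neighbour, and enhancers downstream of H19 serve both. In mice both are abundant in fetal liver and are shut down after birth. Afp, alpha-fetoprotein, and Gpc3, a cell surface proteoglycan, are also fetal liver genes that adult hepatocytes nearly silence, and the repressor Zhx2 acts on Afp, H19 and Gpc3 in adult mouse liver. Dlk1, a transmembrane ligand of liver progenitors, and Meg3, a maternally expressed noncoding RNA, share a second imprinted cluster. Cdkn1c encodes an inhibitor of cyclin-dependent kinases, Peg3 a zinc finger protein and Plagl1 a zinc finger transcription factor, all of them imprinted. Afp and Gpc3 are not imprinted in mice.

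H19 is also the host of a microRNA, whose sequences are shown because it is the small RNA processed from the H19 transcript. The hairpin Mir675 lies inside H19, at chr7:142577064-142577147 on the minus strand of GRCm38.p6, and falls within exons of 3 of the 7 annotated H19 transcripts. RefSeq gives the sequences as follows, 5′ to 3′, with the seed (bases 2 to 8) in capitals in the mature arms and both arms in capitals in the hairpin.
mmu-miR-675-5p: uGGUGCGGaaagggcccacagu
mmu-miR-675-3p: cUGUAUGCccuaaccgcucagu
Mir675 hairpin: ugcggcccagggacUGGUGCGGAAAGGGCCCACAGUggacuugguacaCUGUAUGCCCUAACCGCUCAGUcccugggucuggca
Each of these seeds occurs in 1 of the 1738 mature mouse microRNAs of the RefSeq table, so neither arm shares its seed with another entry. Mir675 was listed at 0 in all 6 libraries, including those with H19 reads. A TruSeq library of total RNA is not made for RNAs as short as a mature microRNA, so this says nothing of the mature arms.

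Values are FPKM, reads scaled by transcript length and library size, and the reads behind each value were recovered from them. Totals ran from 21488841 to 24188029 reads per library. Phpt1, the target of the hairpin, was near 0 throughout, with 4 and 5 reads in AAV-shPhpt1, 4 and 1 in AAV-Ctrl, and 4 and 4 in normal livers, too few to show whether the hairpin lowered it. All 10 hepatocyte markers were detected in every library, with summed levels of 104277.4 to 150615.7 FPKM in AAV-shPhpt1, 88985.0 to 89418.9 in AAV-Ctrl and 102483.9 to 107710.0 in normal livers. AAV-shPhpt1 replicate 2 stood apart from its partner. On the first principal component it scored 2.26, against -40.1 in AAV-shPhpt1 replicate 1, -32.8 and -45.6 in AAV-Ctrl, and 59.1 and 57.1 in normal livers. Its 12 skeletal muscle markers summed to 144.3 FPKM, against 5.05 in replicate 1, 2.59 and 3.39 in AAV-Ctrl, and 1.56 and 2.15 in normal livers. Its macrophage and stellate cell sums were 0.314 and 0.321 times those of replicate 1.

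H19 (ENSMUSG00000000031, a long noncoding RNA gene on the minus strand, chr7:142575529-142578143) was detected at more than 1 read only in AAV-shPhpt1 livers. Its level was 3.61 and 3.45 FPKM in AAV-shPhpt1, 0 and 0 in AAV-Ctrl, and 0.0374 and 0.0336 in normal livers. These values stand for 106 and 104 reads in AAV-shPhpt1, none in AAV-Ctrl, and 1 and 1 in normal livers. Both AAV-shPhpt1 libraries were high and close to each other, and no other library overlapped them. Group means were 3.53 ± 0.108 FPKM in AAV-shPhpt1, 0 in AAV-Ctrl and 0.0355 ± 0.0027 in normal livers (SD, n = 2 each). With AAV-Ctrl set at the limit that a count of 0 allows, 3 reads over the group, H19 was at least 67.6-fold higher in AAV-shPhpt1 than in AAV-Ctrl. Against normal livers, 210 against 2 reads gave a ratio of 99.8 relative to library totals (exact 95% interval 27.3 to 829). Intervals here and below cover counting error only. AAV-Ctrl and normal livers, with 0 and 2 reads, were both under that limit and cannot be ordered. On the scale log2(FPKM + 1) H19 differed by 2.18 between AAV-shPhpt1 and AAV-Ctrl, the 12th highest of the 13517 genes past the expression filter. The difference between AAV-shPhpt1 and normal livers was 2.13, at place 120.

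**Figure D1:**
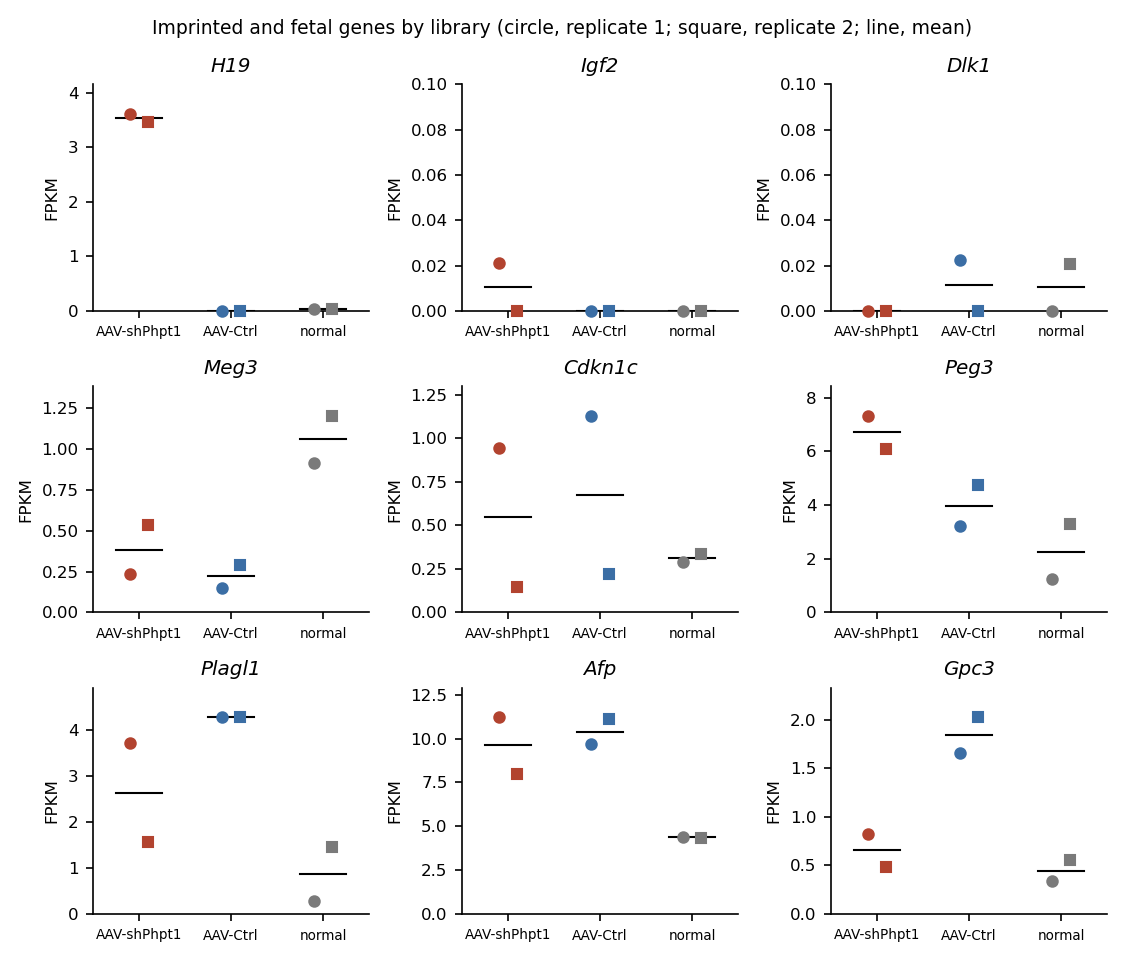
Level of the 9 genes in each library, in FPKM on a linear axis from 0 that differs between panels, with groups along the horizontal axis, replicate 1 as a circle, replicate 2 as a square and the mean of 2 libraries as a line. H19 is at 3.61 and 3.45 FPKM in AAV-shPhpt1 and at 0.0374 or less elsewhere, Igf2 and Dlk1 never pass 0.0225 FPKM, and the other genes do not share the pattern of H19.

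H19 was alike in the AAV-shPhpt1 libraries, and the muscle markers were not. The library with a muscle sum of 5.05 FPKM held H19 at 3.61 FPKM, and the library with a sum of 144.3 held it at 3.45. The muscle sum differed 28.6-fold between them while H19 differed 1.04-fold. Both muscle sums were above those of AAV-Ctrl (2.59 and 3.39 FPKM) and of normal livers (1.56 and 2.15 FPKM). The part of muscle in the H19 values was not tested. Acta1, skeletal muscle actin, was at 0.123 and 41.3 FPKM in AAV-shPhpt1, 0 and 0.0403 in AAV-Ctrl, and 0.0451 and 0 in normal livers. Ckm, muscle creatine kinase, was at 0 and 5.53 FPKM in AAV-shPhpt1, at 0 in both AAV-Ctrl libraries, and at 0 and 0.0270 in normal livers. The regulators of muscle identity Myod1 and Myog were at 0 in 5 of 6 libraries and at 0.0444 and 0.0277 FPKM in AAV-shPhpt1 replicate 2. Of the 12 muscle markers, 5 and 1 were at 0 in AAV-shPhpt1, 6 and 5 in AAV-Ctrl, and 8 and 6 in normal livers. Tnnc2, troponin C of fast muscle, was at 0 in all 6 libraries.

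**Figure D2:**
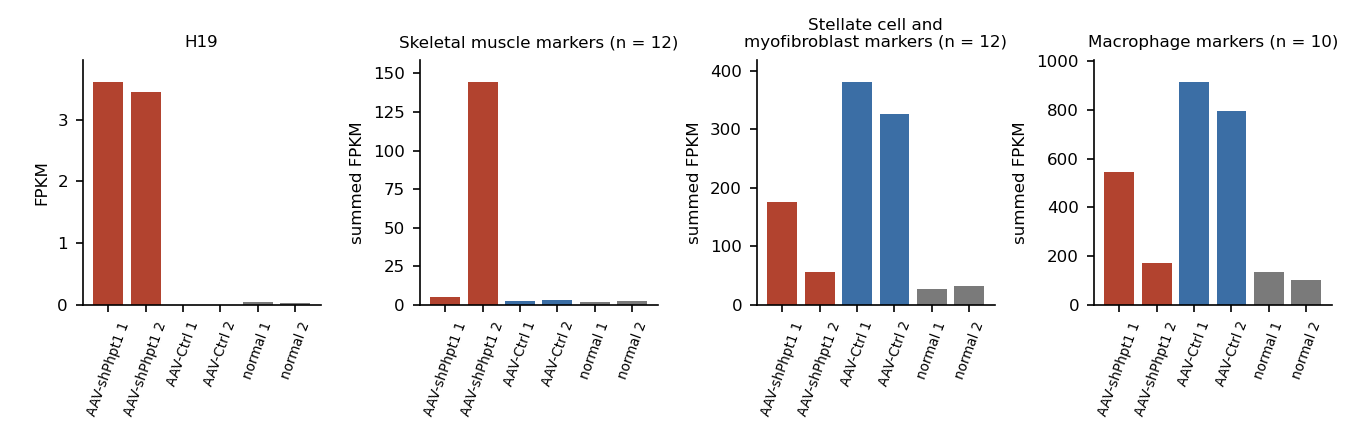
H19 in FPKM, and the summed FPKM of skeletal muscle, stellate cell and macrophage markers, as 1 bar for each library (vertical axes from 0). The H19 bars of the AAV-shPhpt1 libraries are nearly equal at 3.61 and 3.45 FPKM, while their muscle sums are 5.05 and 144.3 FPKM and their macrophage sums 547.6 and 172.0 FPKM.

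Other markers also differed between the AAV-shPhpt1 libraries, where H19 hardly did. Proliferation markers (12 genes) summed to 177.5 and 44.4 FPKM in AAV-shPhpt1, 124.7 and 114.9 in AAV-Ctrl, and 33.7 and 35.7 in normal livers. Macrophage markers (10 genes) summed to 547.6 and 172.0 FPKM in AAV-shPhpt1, 915.0 and 794.9 in AAV-Ctrl, and 135.4 and 103.1 in normal livers. Stellate cell and myofibroblast markers (12 genes) summed to 175.6 and 56.4 FPKM in AAV-shPhpt1, 380.4 and 325.9 in AAV-Ctrl, and 26.2 and 32.0 in normal livers. None of these 3 sums was highest in both AAV-shPhpt1 libraries, as H19 was. The skeletal muscle sum was, with 5.05 and 144.3 FPKM in AAV-shPhpt1 and 3.39 FPKM or less elsewhere. Mesothelial markers were lower in AAV-shPhpt1 than in AAV-Ctrl, with 4.92 and 5.60 FPKM against 11.1 and 14.0 FPKM, and were 2.84 and 3.49 FPKM in normal livers. In bulk tissue a change in the number of cells of a type and a change of RNA per cell cannot be told apart.

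No other gene had reads in AAV-shPhpt1 livers alone in the way H19 did. The search covered the 54495 entries with an annotated transcript length. Many of these had no reads, since 28062 of all 55222 entries had a value above 0 in any library. H19 was the 1 gene with at least 50 reads in both AAV-shPhpt1 libraries and at most 1 read in each other library. It was also the 1 gene when the minimum was set at 10, 20 or 100 reads. The same search found 0 genes for AAV-Ctrl at each of the 4 minimums. For normal livers it found 7, 6, 3 and 1 genes at minimums of 10, 20, 50 and 100, among them the major urinary protein gene Mup19, a family with near-identical copies. These limits were set after the reads of H19 had been seen. Of the 13928 genes with at least 10 reads in both AAV-shPhpt1 libraries, 10 had at most 5 reads in each other library.

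**Figure D3:**
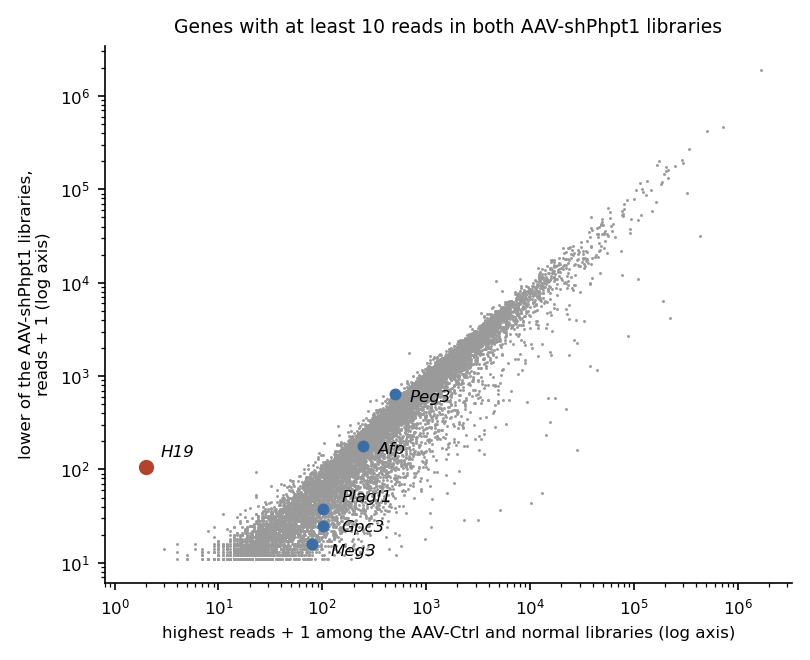
Each point is 1 of the 13928 genes with at least 10 reads in both AAV-shPhpt1 libraries, with the highest read count among the AAV-Ctrl and normal libraries on the horizontal axis and the lower of the AAV-shPhpt1 counts on the vertical axis, both plus 1 and on log axes. H19, in red, stands alone at the left with 104 against 1 read; Peg3, Afp, Plagl1, Gpc3 and Meg3, in blue, lie among the other genes.

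The genes most like H19 either had reads in every group or rested on few reads. Likeness was measured as Pearson's r of log2(FPKM + 1) over 6 libraries, which also share their depth and composition, among 13516 genes past the filter. The highest was Mir32 (r = 0.988), a microRNA hairpin that rested on 3 and 2 reads in AAV-shPhpt1 and none elsewhere. Trim23, an E3 ubiquitin ligase gene, had r = 0.984, with 3.94 and 3.76 FPKM in AAV-shPhpt1, 3.083 and 3.077 in AAV-Ctrl, and 2.999 and 2.961 in normal livers. Dlgap1, a scaffold gene of synapses, had r = 0.977, with 1.58 and 1.42 FPKM in AAV-shPhpt1, 0.757 and 0.837 in AAV-Ctrl, and 0.793 and 0.932 in normal livers. Trim23 and Dlgap1 had at least 54 reads in every library. The other 7 of the 10 most alike were Gm43215, Gm20689, AC135964.2, Gm10226, Hspb11, Klhl12 and Xpc, with r between 0.961 and 0.984. Gm43215 and Gm20689 had at most 8 reads in any library. None of the 8 other imprinted or fetal genes was among the 10. Their r with H19 over the 6 libraries was highest for Peg3 (0.738) and Igf2 (0.643, from 1 read) and lowest for Dlk1 (-0.501).

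Tests were run on lists of related genes, and calls against normal livers had little margin in groups of 2. The median over all genes was 0.353 for AAV-Ctrl and 0.303 for AAV-shPhpt1 against normal livers on the log2 scale, so a difference near these sizes is no larger than that of a typical gene. With any 1 of the AAV-Ctrl or normal libraries left out, AAV-Ctrl against normal livers gave 6 to 18 calls in place of 2772, and 0 in each list below except for 1 fallen neighbour of Dlk1 and Meg3 without AAV-Ctrl replicate 1 and 1 risen fetal gene with either AAV-Ctrl library left out. For AAV-shPhpt1 against normal livers 9 of all genes, and 0 in each list, were called with either normal library left out.

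Igf2 and the genes around H19 did not share its pattern. Igf2 (ENSMUSG00000048583, chr7:142650766-142666816, minus strand, 72.6 kb from H19) had 1 and 0 reads in AAV-shPhpt1 and none in AAV-Ctrl or normal livers. The single read equals 0.0212 FPKM, and the limit a count of 0 allows was 0.0620 to 0.0698 FPKM in the other libraries, so all were indistinguishable from 0. Of its exonic bases, 62.8% are shared with Gm49394 on the same strand, which was listed at 0 in all 6 libraries. Igf2os, antisense to Igf2, was also at 0 in all 6. Mrpl23, a mitochondrial ribosomal protein gene 34.8 kb from H19, had 23.8 and 17.3 FPKM in AAV-shPhpt1, 17.6 and 15.6 in AAV-Ctrl, and 18.0 and 16.9 in normal livers. Its groups overlapped in the comparison of AAV-shPhpt1 with AAV-Ctrl. Nctc1, a noncoding gene 16.9 kb from H19, had 0 and 0.104 FPKM in AAV-shPhpt1 and 0 in the other libraries. The troponin genes Tnnt3 and Tnni2, 59.5 and 131 kb from H19, are themselves among the skeletal muscle markers and part of that sum. Both were higher in each AAV-shPhpt1 library than in any other, but unlike H19 they differed widely between those libraries. Tnnt3 was at 0.4995 and 37.3 FPKM in AAV-shPhpt1, 0.213 and 0.196 in AAV-Ctrl, and 0.110 and 0.0986 in normal livers. Tnni2 was at 0.908 and 19.4 FPKM in AAV-shPhpt1, 0.692 and 0.318 in AAV-Ctrl, and 0 and 0.128 in normal livers. Ins2, on the far side of Igf2, was at 0 in all 6 libraries.

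Calls among the wider neighbours of H19 were about as frequent as among all genes. Of 19 listed neighbours, 10 passed the filter, and 2 rose in AAV-Ctrl over normal livers (limma, adjusted over all genes), against 18.2% of all genes called higher and 2.28% called lower. Ctsd, the lysosomal protease cathepsin D, was at 214.2 and 179.9 FPKM in AAV-Ctrl and 82.4 and 67.9 in normal livers, a log2 difference of 1.38 (SE 0.27, limma adjusted p = 0.0263). Lsp1, a leukocyte actin-binding protein gene, was at 13.6 and 17.8 FPKM in AAV-Ctrl and 3.92 and 1.99 in normal livers, a log2 difference of 2.11 (SE 0.439, limma adjusted p = 0.0291). Both calls ended under median centring (adjusted p = 0.0741 for Ctsd and 0.0559 for Lsp1, limma), and that of Lsp1 also under quantile normalization (0.0665). The macrophage marker sum was higher in the same libraries, and its part in these values was not tested. In AAV-shPhpt1 against AAV-Ctrl 0 of the 10 passed (limma adjusted), as did 0 of all 13517 genes, with 2 of the 10 and 1146 of all genes at an unadjusted p under 0.05. Limma-voom on recovered reads also called 0 genes in this comparison. Calls in this list changed when AAV-shPhpt1 replicate 1 was left out. Only 1 library then stood for that group, the one with the muscle sum of 144.3 FPKM, and the list holds the muscle markers Tnnt3 and Tnni2.

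The second cluster held Dlk1 and Meg3, and only its noncoding genes were measurable. Dlk1 (ENSMUSG00000040856, chr12:109452823-109463336, plus strand) had no reads in AAV-shPhpt1, 1 and 0 in AAV-Ctrl, and 0 and 1 in normal livers. All values were under the limit that a count of 0 allows, 0.0616 to 0.0694 FPKM per library. Meg3 (ENSMUSG00000021268, chr12:109541001-109571726, plus strand) was at 0.235 and 0.535 FPKM in AAV-shPhpt1, 0.151 and 0.292 in AAV-Ctrl, and 0.913 and 1.21 in normal livers. Its reads were 15 and 35 in AAV-shPhpt1, 9 and 19 in AAV-Ctrl, and 53 and 78 in normal livers. Normal livers were high, and the groups with CCl4 overlapped each other and not the normal livers. Normal livers lay above the other group without overlap for 12.5% of all genes in each of these comparisons. Relative to library totals Meg3 was 0.21 times as high in AAV-Ctrl as in normal livers (95% interval 0.135 to 0.318) and 0.363 times as high in AAV-shPhpt1 as in normal livers (0.256 to 0.506). Between AAV-shPhpt1 and AAV-Ctrl the ratio was 1.73 (1.07 to 2.85), with overlapping libraries.

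Rian, a maternally expressed noncoding RNA downstream of Meg3, was also highest in normal livers. Its level was 0.347 and 0.169 FPKM in AAV-shPhpt1, 0.678 and 0.595 in AAV-Ctrl, and 1.71 and 1.34 in normal livers, with no overlap between any groups. Neither comparison of Rian with normal livers passed (log2 difference -1.01, SE 0.25, limma adjusted p = 0.071 for AAV-shPhpt1, and -0.62, SE 0.25, adjusted p = 0.114 for AAV-Ctrl). For AAV-Ctrl it was called lower under median centring (-1.07, limma adjusted p = 0.0468) and under quantile normalization (-1.15, adjusted p = 0.0437). Rtl1, the paternally expressed neighbour, was at 0 in all 6 libraries, and Mirg and Dio3 had at most 0.179 and 0.0243 FPKM in any. Of the 14 listed genes around Dlk1 and Meg3, 9 passed the filter, and 3 rose and 1 fell in AAV-Ctrl against normal livers (0 and 2 with median centring, 1 and 2 with quantile normalization), where 18.2% of all genes rose and 2.28% fell. Evl, an actin regulator, rose by 2.70 (SE 0.633, limma adjusted p = 0.0355), and Wars, tryptophanyl-tRNA synthetase, by 1.25 (SE 0.181, adjusted p = 0.0162) on the log2 scale. Ppp2r5c, a phosphatase subunit gene, rose by 0.55 (SE 0.138, limma adjusted p = 0.0408). The rises of Evl and Ppp2r5c ended under both other scalings and that of Wars under median centring, while the fall of Slc25a47 held under both. Slc25a47, a mitochondrial carrier of hepatocytes, fell in AAV-Ctrl, where it had 147.3 and 74.1 FPKM against 461.8 and 398.6 in normal livers (log2 difference -2.03, SE 0.31, limma adjusted p = 0.0176). In AAV-shPhpt1 it had 291.2 and 311.2 FPKM, between the other groups without overlap, and the log2 difference of 1.52 (SE 0.31) from AAV-Ctrl did not pass (limma adjusted p = 0.434).

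Among the imprinted growth regulators, Peg3 and Plagl1 had group means above 1 FPKM in at least 1 group and Cdkn1c did not. Peg3 (ENSMUSG00000002265, chr7:6703892-6730431, minus strand) was at 7.34 and 6.10 FPKM in AAV-shPhpt1, 3.21 and 4.74 in AAV-Ctrl, and 1.23 and 3.30 in normal livers. Like H19 it was highest in both AAV-shPhpt1 libraries, but it had 311 and 499 reads in AAV-Ctrl, where H19 had none. Relative to library totals Peg3 was 1.67 times as high in AAV-shPhpt1 as in AAV-Ctrl (95% interval 1.53 to 1.83) and 2.89 times as high as in normal livers (2.6 to 3.22). AAV-Ctrl and normal livers overlapped, and the normal libraries differed 2.67-fold from each other. Groups that do not overlap with AAV-shPhpt1 higher were seen for 11.8% of all genes against AAV-Ctrl and for 52.2% against normal livers.

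Plagl1 (ENSMUSG00000019817, chr10:13060504-13131694, plus strand) was at 3.72 and 1.56 FPKM in AAV-shPhpt1, 4.29 and 4.28 in AAV-Ctrl, and 0.285 and 1.45 in normal livers. AAV-Ctrl was highest and normal livers lowest, with no overlap. The lower AAV-shPhpt1 library (1.56 FPKM) was close to the higher normal one (1.45 FPKM). Of all genes, 60.0% had AAV-Ctrl above normal livers without overlap. AAV-shPhpt1 lay above normal livers in this way for 52.2% and below AAV-Ctrl for 26.2%. In reads the ratio was 4.77 for AAV-Ctrl against normal livers (95% interval 3.38 to 6.88) and 0.613 for AAV-shPhpt1 against AAV-Ctrl (0.485 to 0.772). Most of the difference between AAV-shPhpt1 and AAV-Ctrl came with the library that stood apart. Without AAV-shPhpt1 replicate 2 the log2 difference was -0.16, against -0.60 with it.

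Cdkn1c (ENSMUSG00000037664, chr7:143458339-143461050, minus strand, 880 kb from H19) was at 0.946 and 0.148 FPKM in AAV-shPhpt1, 1.13 and 0.223 in AAV-Ctrl, and 0.291 and 0.336 in normal livers. Replicate 1 was 6.4-fold above replicate 2 in AAV-shPhpt1 and 5.08-fold above it in AAV-Ctrl. This spread exceeded any difference between groups, and every pair of groups overlapped. Of its exonic bases 30.7% are shared with the antisense gene Gm44732, listed at 0 in all libraries, and whether counting used strand is not given in the sources used here. Cdkn1a, the p53-induced relative of Cdkn1c, rose in AAV-Ctrl over normal livers, with 24.5 and 47.9 FPKM against 0.661 and 0.0890 (log2 difference 4.71, SE 0.434, limma adjusted p = 0.00849). It also rose in AAV-shPhpt1 over normal livers, to 30.9 and 15.9 FPKM (log2 difference 4.11, SE 0.434, limma adjusted p = 0.0152). It was the 1 gene of 4 tested CDK inhibitors to pass in either comparison with normal livers, and limma-voom did not call it for AAV-shPhpt1.

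Afp (ENSMUSG00000054932, chr5:90490737-90508907, plus strand) had the highest level of the 9 genes, and it was higher in both groups with CCl4 than in normal livers. It was at 11.2 and 8.01 FPKM in AAV-shPhpt1, 9.69 and 11.1 in AAV-Ctrl, and 4.38 and 4.34 in normal livers. The groups with CCl4 overlapped each other and lay above both normal libraries. AAV-Ctrl lay above normal livers without overlap for 60.0% of all genes. In reads Afp was 2.39 times as high in AAV-Ctrl as in normal livers (95% interval 2.01 to 2.86) and 2.2 times as high in AAV-shPhpt1 as in normal livers (1.85 to 2.63). For AAV-shPhpt1 against AAV-Ctrl the ratio was 0.921, with an interval of 0.804 to 1.05. The 5 genes most like Afp over the 6 libraries were Pot1b, Mre11a, Fkbp1a, Tmem209 and Pitpnm1, with r between 0.998 and 0.999. Pot1b, a telomere-binding protein gene, was at 2.81 and 1.90 FPKM in AAV-shPhpt1, 2.33 and 2.84 in AAV-Ctrl, and 0.831 and 0.764 in normal livers. Of the other albumin family genes, Alb, Afm and Gc, 0 of 3 passed in any comparison (limma and limma-voom), with 1 at an unadjusted p under 0.05 in each comparison that involves AAV-shPhpt1 and 0 between AAV-Ctrl and normal livers. They had log2 differences of -0.03, -0.09 and 0.03 between AAV-Ctrl and normal livers. All 3 were higher in AAV-shPhpt1 than in AAV-Ctrl (median log2 difference 0.522) and than in normal livers (0.447). Of all 13517 genes, 5243 and 10231 were higher in these comparisons, and 1146 and 4282 were at an unadjusted p under 0.05 (limma). The family sum was 137331.7 and 95228.2 FPKM in AAV-shPhpt1, 80110.9 and 81747.8 in AAV-Ctrl, and 79812.5 and 84762.6 in normal livers.

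Gpc3 (ENSMUSG00000055653, chrX:52272426-52613950, minus strand) was highest with the control virus. It was at 0.827 and 0.485 FPKM in AAV-shPhpt1, 1.66 and 2.03 in AAV-Ctrl, and 0.341 and 0.551 in normal livers. AAV-Ctrl lay above both other groups, and AAV-shPhpt1 and normal livers overlapped. In reads Gpc3 was 4.1 times as high in AAV-Ctrl as in normal livers (95% interval 2.91 to 5.88) and 0.353 times as high in AAV-shPhpt1 as in AAV-Ctrl (0.261 to 0.473). Gpc3 was thus lower in AAV-shPhpt1 than in AAV-Ctrl, while H19 was higher. Groups that do not overlap with AAV-shPhpt1 lower than AAV-Ctrl were seen for 26.2% of all genes. Without AAV-shPhpt1 replicate 2 the log2 difference was -0.63, against -0.78 with it. The stellate cell and macrophage sums were also higher in AAV-Ctrl than in the other groups, and their part in Gpc3 was not tested. Gpc1, another glypican, rose in AAV-Ctrl over normal livers (9.48 and 9.81 against 4.66 and 3.91 FPKM, log2 difference 1.02, SE 0.163, limma adjusted p = 0.0192). It was the 1 gene of 6 tested glypicans and Hedgehog partners to pass in that comparison, where 18.2% of all genes rose. Its call ended under median centring and under quantile normalization.

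Of the 9 genes, 6 passed the expression filter, a group mean of 1 FPKM or more in any group. H19 passed it through AAV-shPhpt1 alone, Gpc3 through AAV-Ctrl alone and Meg3 through normal livers alone, so these had to differ, and Igf2, Dlk1 and Cdkn1c did not pass. The calls among the 6 are given beside those of all genes and support nothing, since the genes were selected on these values. Of the 6, 3 were called higher in AAV-Ctrl than in normal livers (Plagl1, Afp and Gpc3; limma adjusted), where 18.2% of all genes were higher and 20.5% were called in either direction. In AAV-shPhpt1 against AAV-Ctrl 0 of the 6 were called, as were 0 of all genes. At an unadjusted p under 0.05 (limma) were 2 of the 6 and 1146 of all 13517 genes. In AAV-shPhpt1 against normal livers 1 of the 6 was called higher, H19, where 3.26% of all genes were called higher and 1.07% lower. Just inside the filter were Meg3, with a highest group mean of 1.06 FPKM, and Gpc3, with 1.84, and just outside it was Cdkn1c with 0.676. The calls of Plagl1, Afp and Gpc3 ended under median centring and under quantile normalization, and Meg3 was called lower in AAV-Ctrl under median centring and limma-voom. The call of H19 held under the other scalings and limma-voom, and ended with no filter or with any 1 AAV-Ctrl or normal library left out. The comparisons share their libraries, so their values stand side by side and are not independent.

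Zhx2, the repressor of Afp, H19 and Gpc3, did not pass in any comparison. Its level was 6.85 and 8.78 FPKM in AAV-shPhpt1, 7.47 and 6.90 in AAV-Ctrl, and 8.40 and 8.999 in normal livers. Normal livers were above AAV-Ctrl without overlap, with a log2 difference of -0.25 (SE 0.177, limma adjusted p = 0.326). AAV-shPhpt1 overlapped both. Its relative Zhx3 fell in AAV-Ctrl, with 11.9 and 10.3 FPKM against 18.3 and 16.9 in normal livers (log2 difference -0.62, SE 0.145, limma adjusted p = 0.0352). Zhx3 was at 14.9 and 15.6 FPKM in AAV-shPhpt1 and did not pass against either group. The hepatocyte factors Hnf4a and Foxa2 did not pass in any comparison.

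Among proteins that act on imprinted loci, Zfp57 stood out. Zfp57, a zinc finger protein that keeps DNA methylation at imprinting control regions, was at 6.38 and 2.73 FPKM in AAV-shPhpt1, 5.03 and 6.79 in AAV-Ctrl, and 0.0916 and 0.535 in normal livers. Both groups with CCl4 were above normal livers, and they overlapped each other. The log2 difference from normal livers was 2.40 for AAV-Ctrl (SE 0.38, limma adjusted p = 0.0187) and 2.02 for AAV-shPhpt1 (SE 0.38, limma adjusted p = 0.0461). The call for AAV-Ctrl held under both other scalings and limma-voom, and the call for AAV-shPhpt1 under none of the 3. Its cofactor Trim28 was at 62.4 and 75.2 FPKM in AAV-shPhpt1, 64.6 and 75.1 in AAV-Ctrl, and 55.4 and 57.4 in normal livers, and did not pass. Ctcf, which binds the control region between H19 and Igf2, did not pass either, with a log2 difference of -0.06 (SE 0.13, limma adjusted p = 0.947) between AAV-shPhpt1 and AAV-Ctrl. Of the 22 regulators tested, 2 rose and 1 fell in AAV-Ctrl over normal livers, where 18.2% of all genes rose and 2.28% fell. The other rise was Trp53, p53, with 0.80 (SE 0.154, limma adjusted p = 0.0259), against 0.34 (adjusted p = 0.204) under median centring and 0.43 (adjusted p = 0.131) under quantile normalization. In AAV-shPhpt1 against normal livers 1 rose and 1 fell, beside 3.26% and 1.07% of all genes. They were Zfp57 and Cebpb, a liver C/EBP factor, with a log2 difference of -1.12 (SE 0.14, limma adjusted p = 0.0239).

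The wider set of imprinted genes did not share the pattern of H19. Of 46 other imprinted genes, 26 passed the filter, and in AAV-shPhpt1 against AAV-Ctrl 0 of them passed the test (limma adjusted), with 4 at an unadjusted p under 0.05 and 3 with a positive difference. The count that passed changed when AAV-shPhpt1 replicate 1 was left out, which leaves 1 library in that group. Of all 13517 genes, 1146 were at an unadjusted p under 0.05 (limma) and 5243 had a positive difference. The median log2 difference of the 26 was -0.282, beside -0.07 over all genes tested. In AAV-Ctrl against normal livers 4 rose and 0 fell, where 18.2% of all genes rose, with a median of 0.485 beside 0.353 over all genes tested. Phlda2, a growth-limiting gene of the placenta, had the largest rise of the 4, with 1.63 and 4.75 FPKM in AAV-Ctrl against 0.373 and 0.168 in normal livers (log2 difference 1.62, SE 0.401, limma adjusted p = 0.0400). Htra3, a serine protease gene, rose by 1.54 (SE 0.341, limma adjusted p = 0.0323) and Igf2r, the receptor that clears IGF2, by 0.71 (SE 0.14, adjusted p = 0.0269). H13, a signal peptide peptidase gene, rose by 0.47 (SE 0.121, limma adjusted p = 0.0432). All 4 calls ended under median centring and under quantile normalization. More genes of the list, and more of all genes, rose when either AAV-shPhpt1 library was left out of the shared fit. In AAV-shPhpt1 against normal livers 0 of the 26 passed (limma and limma-voom). At an unadjusted p under 0.05 (limma) were 6 of the 26, beside 4282 of all 13517 genes. The count that passed changed without AAV-shPhpt1 replicate 2, which leaves 1 library in that group. Igf2r overlaps its antisense partner Airn, and H13 holds Mcts2 in an intron, so reads in these pairs could be split by the counting.

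**Figure D4:**
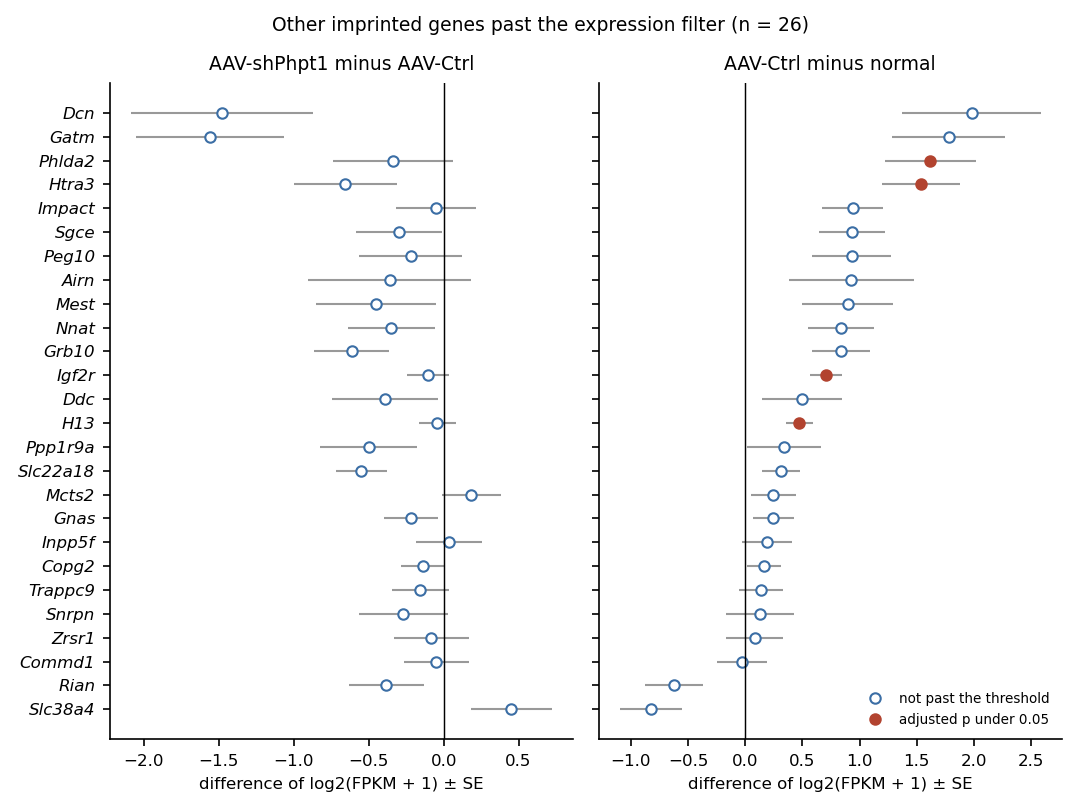
Difference of log2(FPKM + 1), with its SE, for the 26 other imprinted genes past the filter, AAV-shPhpt1 minus AAV-Ctrl on the left and AAV-Ctrl minus normal on the right (n = 2 libraries a group). Filled points passed at an adjusted p under 0.05 (limma), with 4 on the right and 0 on the left. On the left 3 of 26 differences are above 0, beside 5243 of all 13517 genes.

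Genes of the insulin-like growth factor axis differed between AAV-Ctrl and normal livers, while Igf2 itself was near 0 in both. Of 17 tested, 5 rose and 4 fell in AAV-Ctrl (limma), against 1 and 5 with median centring and 1 and 4 with quantile normalization, where 18.2% of all genes rose and 2.28% fell. The rises of Igfbp7 and Igfbp1 named next ended under both of these scalings, and that of Igf2bp2 held. Igfbp7 rose by 2.48 (SE 0.609, limma adjusted p = 0.0393) and Igfbp1, a binding protein secreted by hepatocytes, by 2.16 (SE 0.449, adjusted p = 0.0292). Igf2bp2, which encodes an RNA-binding protein named for Igf2 mRNA, was at 3.27 and 4.57 FPKM in AAV-Ctrl and 0.259 and 0.148 in normal livers (log2 difference 2.02, SE 0.289, limma adjusted p = 0.0160). Igfbp2 fell, with 109.6 and 103.3 FPKM in AAV-Ctrl against 295.2 and 318.4 in normal livers (log2 difference -1.52, SE 0.24, limma adjusted p = 0.0186). In AAV-shPhpt1 Igfbp2 was at 405.2 and 245.3 FPKM, without overlap with AAV-Ctrl, and the log2 difference of 1.56 (SE 0.24) did not pass (limma adjusted p = 0.434). In AAV-shPhpt1 against normal livers 1 rose and 2 fell, beside 3.26% and 1.07% of all genes, with 3 and 3 without AAV-shPhpt1 replicate 2 and 0 and 0 without replicate 1. Igfbp1 rose to 224.4 and 237.8 FPKM in AAV-shPhpt1, against 15.2 and 24.8 in normal livers (log2 difference 3.50, SE 0.449, limma adjusted p = 0.0249). The growth hormone receptor gene Ghr fell, with a log2 difference of -1.03 (SE 0.16, limma adjusted p = 0.0338), as did Igfbp4 with -0.96 (SE 0.179, adjusted p = 0.0451). Both falls ended under quantile normalization (adjusted p = 0.051 and 0.0591, limma) and limma-voom (0.051 and 0.055), and that of Igfbp4 also under median centring (0.0516).

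Part of the fetal and oncofetal liver genes other than the 9 rose in AAV-Ctrl over normal livers. Of 14 tested, 7 rose and 0 fell (3 and 0 under either other scaling), where 18.2% of all genes rose. The median was 1.19 beside 0.353 over all genes, and all 14 differences were positive, as were those of 10361 of all 13517 genes. Ly6d, a surface protein gene, was at 52.3 and 114.4 FPKM in AAV-Ctrl against 0.375 and 0.337 in normal livers (log2 difference 5.85, SE 0.374, limma adjusted p = 0.00551). Pkm, which encodes the pyruvate kinase of fetal and proliferating cells, rose by 3.50 (SE 0.448, limma adjusted p = 0.0151), and Scd2, a desaturase gene, by 1.93 (SE 0.417, adjusted p = 0.0310). Spp1, osteopontin, rose by 1.89 (SE 0.366, limma adjusted p = 0.0260). In AAV-shPhpt1 against normal livers 4 of the 14 rose, Ly6d by 5.00 (SE 0.374, limma adjusted p = 0.00783), Sox9 by 1.95 (SE 0.232, adjusted p = 0.0213), Spp1 by 1.88 (SE 0.366, adjusted p = 0.0481) and Hmga1 by 1.58 (SE 0.205, adjusted p = 0.0249), where 3.26% of all genes rose. Spp1 ended under median centring, quantile normalization and limma-voom, Hmga1 under median centring (limma adjusted p = 0.0527) and Ly6d under limma-voom (adjusted p = 0.0616). Lin28b, a repressor of let-7 microRNAs in fetal liver, was at 0 in all 6 libraries. Lin28a and Igf2bp1 were at 0 in all except AAV-shPhpt1 replicate 1, where they had 0.0349 and 0.0746 FPKM. The number of the 14 tested genes called higher in AAV-shPhpt1 than in normal livers changed when either AAV-shPhpt1 library was left out. In AAV-shPhpt1 against AAV-Ctrl 0 of the 14 passed (limma), with 2 at an unadjusted p under 0.05, beside 0 and 1146 of all 13517 genes. The cholangiocyte and progenitor markers summed to 89.5 and 108.7 FPKM in AAV-shPhpt1, 71.2 and 134.5 in AAV-Ctrl, and 31.4 and 36.3 in normal livers. These markers share genes with the fetal list, Sox9 and Spp1 among them, so their sum is not separate from it. The part of these cells in the list was not tested.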

How the data were processed

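Mouse liver RNA gave 6 sequencing libraries, 2 in each of 3 groups, which were taken from the sample titles. The table the authors deposited holds FPKM values for 55222 entries. Its header names no unit, and the values behave as FPKM: times the mean annotated transcript length they give whole multiples of a step that is constant within a library. Per the submitters' processing notes, Bowtie 0.12.2 was used, and mm9 and mm8 are named as builds, without a role. No source used here states the counter, the annotation or the use of strand. The labels give total RNA, Trizol and a TruSeq RNA kit.

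Symbols came from the table, and lengths and coordinates from GENCODE M21 on GRCm38, where 54495 identifiers matched. Recovered reads were used for depth, ratios and limma-voom; values came out whole within 0.05 reads for 96.3% to 96.6% of values. Ratios have exact conditional binomial intervals at 95%. The 13517 genes whose mean reached 1 FPKM in any group were fitted as log2(FPKM + 1) by limma-trend (limma 3.58.1, R 4.3.3), all 6 libraries in 1 fit of 3 comparisons, and called at a Benjamini-Hochberg adjusted p under 0.05, two-sided. Fold changes on this scale understate those of low genes. The labels do not say that libraries came from separate animals, so p-values measure the spread between these samples, which may be technical. The fit was tested on simulated data with a spread fixed in advance and no library that stood apart. That test therefore does not show how reliable the calls are in these libraries.

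The 9 genes and the 18 lists with 240 genes were chosen with earlier results of these data known. Named genes are the 9, up to 4 genes past the threshold in each list and comparison with the largest difference, members of the neighbour, regulator, albumin and CDK inhibitor lists, the 10 genes most like H19 and the 5 most like Afp. 1 gene of the regulator list is not reported here. Muscle markers, Lin28a, Lin28b and Igf2bp1 were named after their values were seen. Alternatives were another pseudocount, no filter, 2 other scalings, the replicate block, a fit on 4 libraries, limma-voom and leaving out each library; limits on reads were added after seeing the data.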

Additional observations from a re-analysis of the deposited data

How the results depend on the processing

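The reads of H19 do not depend on a scaling, but its log2 difference does. For AAV-shPhpt1 against AAV-Ctrl it was 2.18, and 5.18 with a pseudocount of 0.1, 2.28 with median centring, 2.09 with quantile normalization, 7.67 with limma-voom, and 2.15 to 2.20 without 1 library. For AAV-shPhpt1 against normal livers it was 2.13, and 4.74, 1.78, 1.87 and 6.07 under the same settings, and 2.10 to 2.15 without 1 library. For AAV-Ctrl against normal livers it was -0.05, and -0.44, -0.50, -0.22 and -1.60, and -0.05 to -0.05 without 1 library, from 0 and 2 reads.

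Counts of calls depended on every library. AAV-Ctrl against normal livers gave 2772 genes, 96 with no filter, 1295 with median centring (566 higher, 729 lower), 1092 with quantile normalization (632 and 460) and 6 to 3739 without 1 library. AAV-shPhpt1 against AAV-Ctrl gave 0 genes and 0 to 377 without 1 library, with 377 without AAV-shPhpt1 replicate 1 and 5 without replicate 2. AAV-shPhpt1 against normal livers gave 586 genes, 4 with no filter, 313 with median centring (128 higher, 185 lower), 236 with quantile normalization (114 and 122), 202 with the 4 libraries compared, 186 with limma-voom and 9 to 2289 without 1 library. Other imprinted genes called in AAV-Ctrl against normal livers numbered 4, and 0 with no filter, 1 (lower) with median centring and with quantile normalization, 9 with 4 libraries and 0 to 9 without 1 library. In AAV-shPhpt1 they numbered 0 against AAV-Ctrl (0 to 2 without 1 library) and 0 against normal livers (0 to 3). The causes were not tested.

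Same-numbered libraries correlated at 0.153, 0.0406 and 0.0727 in their deviations from group means. With 2 libraries a group these values cannot show whether the replicate numbers pair the libraries. With the replicate number as a block AAV-Ctrl against normal livers gave 2162 genes, AAV-shPhpt1 against normal livers 384 and AAV-shPhpt1 against AAV-Ctrl 0. Every group holds both replicate numbers, so the block cannot change a difference of group means. The unchanged H19 differences are therefore no test of this setting.

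Of the differences of the other 8 genes under alternatives, 43 moved by more than the spread between replicates and 260 did not. The 260 include settings that cannot move a difference of group means: no filter, the replicate block and the fit on the libraries compared only. They also include fits with a library left out, where the shift is bound to that same spread. The count of 260 is therefore no measure of stability. Gpc3 between AAV-shPhpt1 and normal livers was 0.19 and turned to -0.16 with median centring and -0.20 with quantile normalization. Igf2, Dlk1 and Cdkn1c have too few reads, or too wide a spread, for a direction.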
